A study of Capra hircus with 18 samples.

Results

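*CSF3R*, *C5AR1*, *CLEC4D*, *CLEC4E* and *ADGRG3* encode 5 receptors on the surface of neutrophils and other myeloid cells, through which these cells receive signals to mature, migrate and attack microbes. They were found by gene name in the tables of genes that differed between transported and control goats. All 5 were in the table for 180 min of transport, which holds 1247 genes. *C5AR1* and *ADGRG3* were also in the table for 30 min, which holds 430 genes, and the other 3 were not analysed at 30 min here. The tables together hold 1557 different genes.

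RNA was sequenced from whole blood of 18 uncastrated male Spanish goats, 8 months old, with 1 library per goat. The 7 control goats were held in pens, 4 goats travelled about 50 km in a trailer for 30 min, and 7 travelled about 200 km for 180 min. All goats had been without feed overnight, the transport took place on 2 days, and the blood was taken after transport. The labels do not say which goat belonged to which day. Day could therefore not be included in the fits, and whether it was balanced over the sequenced groups is unknown here. Goats are named by their label numbers.

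Neutrophils leave the bone marrow under the influence of granulocyte colony-stimulating factor (G-CSF), and CSF3R is its receptor, which signals through JAK kinases and STAT transcription factors. C5AR1 is the G protein-coupled receptor for the complement fragment C5a, which draws neutrophils and monocytes to sites of inflammation. CLEC4D (also called MCL) and CLEC4E (Mincle) are C-type lectin receptors that bind microbial glycolipids and signal through the FcRγ chain, the kinase SYK and the adaptor CARD9. ADGRG3 (GPR97) is an adhesion G protein-coupled receptor found mainly on granulocytes.

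The genes lie in the coordinates of the deposited tables, whose genome build is not given in the sources used here. *CSF3R* (ENSCHIG00000006768) lies on chromosome 3 from 11394707 to 11405330 on the minus strand. *C5AR1* (ENSCHIG00000016291) lies on chromosome 18 from 55346343 to 55362018, and *ADGRG3* (ENSCHIG00000010854) on the same chromosome from 26993583 to 27020617, both on the plus strand. *CLEC4E* (ENSCHIG00000013565) lies on chromosome 5 from 99584321 to 99596508 on the plus strand. *CLEC4D* (ENSCHIG00000011494) follows it from 99602727 to 99610708 on the minus strand. The 2 lectin genes are 6218 bases apart, and the goat RefSeq annotation (ARS1.2) places 0 genes between them. In that annotation *C5AR2*, the second C5a receptor gene, is the next protein-coding gene after *C5AR1*. *CLEC6A*, another lectin receptor gene, is the next protein-coding gene after *CLEC4D*.

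The values are normalized counts, which are the reads on a gene divided by a size factor per goat, and FPKM, which are reads per kilobase of gene and per 1000000 reads. The effective library size, which is the library size behind the FPKM, lay between 10443023 and 39473244 in the control goats, between 13992574 and 22855051 in the 30 min group and between 11290309 and 34125715 in the 180 min group. Differences from control are given on the scale of log2(normalized count + 1), with their standard error, and were tested with limma over all genes of a table with Benjamini-Hochberg adjustment. A gene was called at an adjusted p under 0.05. Since a gene entered a table only through a difference between the same goats, these tests are no independent evidence, and the adjustment over listed genes controls no error rate over all genes of the goat.

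In the control goats the levels per gene length spanned a wide range. *CSF3R* was by far the highest, with 539 ± 236 FPKM (SD, n = 7), followed by *C5AR1* with 55.3 ± 17.5. The other 3 were low and close together, *CLEC4D* at 5.81 ± 5.13, *CLEC4E* at 5.68 ± 3.36 and *ADGRG3* at 4.13 ± 1.61 FPKM. The ranges of the goats were apart between *CSF3R* and *C5AR1* and between *C5AR1* and *CLEC4D*, and they overlapped among the 3 low genes.

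After 180 min the order of the low genes was different. *CSF3R* stood at 963 ± 152 FPKM (SD, n = 7), *C5AR1* at 177 ± 107, *CLEC4E* at 55.1 ± 28.3, *CLEC4D* at 39.4 ± 42.5 and *ADGRG3* at 12.5 ± 5.45. Of the neighbours in this order, only *CSF3R* and *C5AR1* had ranges of the goats that were apart. *CLEC4E* was above *CLEC4D* in 5 of the 7 goats of the 180 min group and below it in 4 of the 7 control goats.

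**Figure D1:**
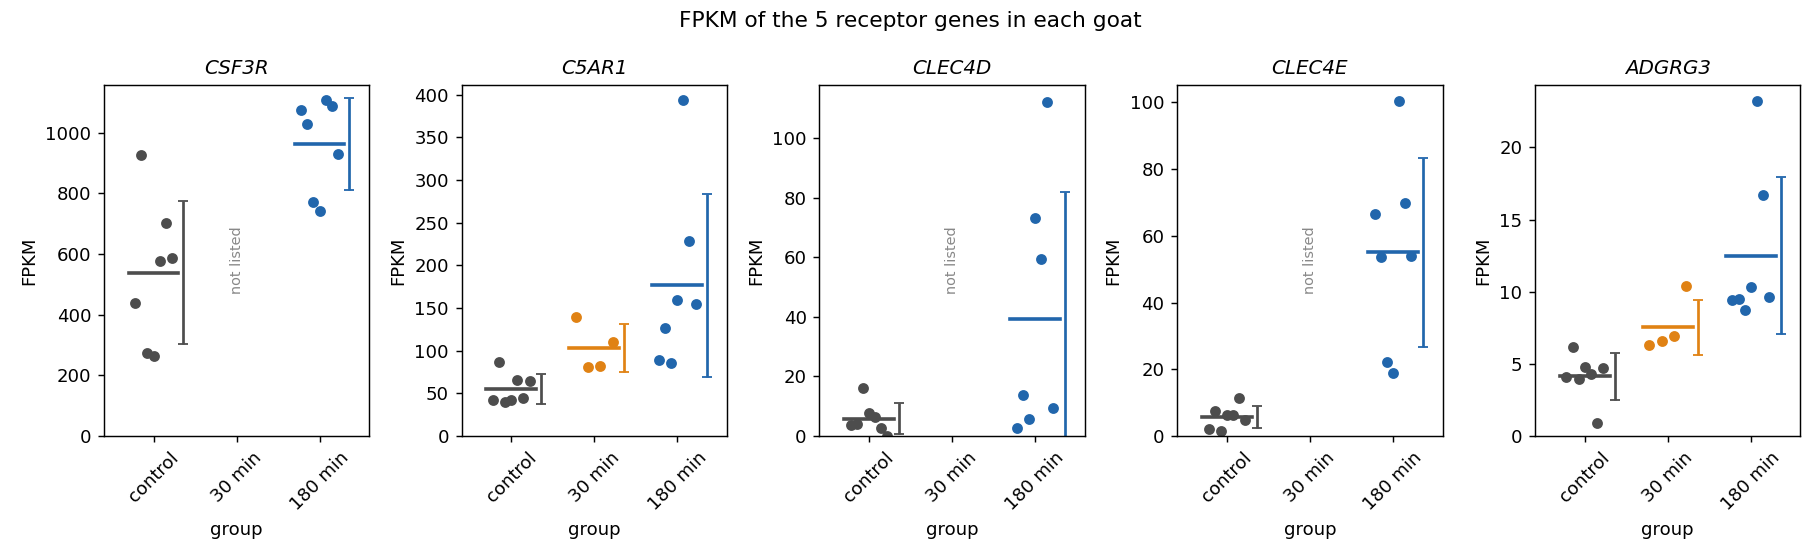
FPKM (y axis, linear, a separate scale for each gene) of the 5 receptor genes in each goat of the control, 30 min and 180 min groups (x axis). Points are goats, horizontal lines are group means and vertical bars are ± SD (cut at 0 for *CLEC4D*), and "not listed" marks genes with no values at 30 min. The 180 min means are above the control means in all 5 panels, and the 7 goats of the 180 min group are all above the 7 control goats for *CLEC4E* and *ADGRG3*.

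In the 180 min group all 5 receptor genes had higher mean levels than in the control goats, and 4 of them were called higher (*CLEC4E*, *ADGRG3*, *C5AR1* and *CSF3R*). Of the 1247 genes of the table, 207 were called higher, which is 16.6%. Both counts depended on single goats. Without control goat 4 or 6, or without goat 15 or 16, 1 of the 5 (*CLEC4E*) and 9 to 17 of the listed genes were called higher. The median difference of the 5 genes was 1.62 on the log2 scale, against 0.68 for all listed genes. In *CLEC4E* and *ADGRG3* the lowest of the 7 transported goats exceeded the highest control goat, a separation that 23 of the 1247 genes showed, or 1.84%. This contrast is the one through which the genes came to be listed.

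*CLEC4E* had the largest difference of the 5. Its normalized count lay between 31.9 and 222 in the control goats, with a median of 137, and between 399 and 2085 in the 180 min group, with a median of 994. The lowest transported goat, goat 13, was thus above the highest control goat, goat 8. The mean was 9.48 times that of the control goats (1080 ± 592 against 114 ± 66.6, SD, n = 7 each). The log2 difference was 3.29 (standard error 0.50, limma, adjusted p = 0.00342) and ranked 12 among the 1247 listed genes. The exact two-sided permutation test over the goats gave p = 0.000583, the smallest that 7 goats against 7 can give. Leaving out each goat in turn kept the adjusted p at or below 0.0111 and the difference between 3.03 and 3.49.

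*CLEC4D*, its neighbour on the chromosome, had a higher mean that rested on 3 goats. Its normalized count lay between 0 and 233 in the control goats, with a median of 51.3. In the 180 min group goats 14, 15 and 16 had 1037, 824 and 1508, above all control goats. Goats 10, 11, 13 and 17 had 33.8, 168, 70.2 and 115, within the range of the control goats. The mean was 536 ± 586 against 81.6 ± 75.8 (SD, n = 7 each), and the log2 difference was 2.58 (standard error 1.15). *CLEC4D* was not called (limma, adjusted p = 0.0750, exact permutation test, p = 0.0542). Leaving out each goat in turn gave differences of 1.68 (without control goat 9, adjusted p = 0.106) to 3.05 (without goat 10, adjusted p = 0.0610), none of them called. *CLEC4D* was called with edgeR on the counts and the deposited size factors (2.71, adjusted p = 0.0402), which called 36.6% of the listed genes higher. It was also called with DESeq2 (2.72, adjusted p = 0.00980), which called 58.1% higher, but the genes were listed by the authors' own DESeq2 comparison of these goats, so that call repeats the listing. In control goat 9 no read fell on the gene, which at 3 reads allows a normalized count of up to 2.79 and covers counting error only.

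The goats with high *CLEC4D* also differed in a property of the whole library. The ratio of the effective library size to the size factor was 21.1 to 22.2, in units of 1000000 reads, in goats 14, 15 and 16 and 18.9 to 20.1 in the other 4 goats of the 180 min group. In the control group it was 22.4 to 22.8 in goats 4, 6 and 7 and 19.2 to 20.5 in the other 4 goats. Control goats 4, 6 and 7 also had the 3 highest *CLEC4D* values of their group, 233, 111 and 91.7. Among the 6 goats with a high ratio *CLEC4D* was thus 91.7 to 233 in the controls and 824 to 1508 after 180 min, and among the other 8 it was 0 to 51.3 and 33.8 to 168. With a term for this ratio in the limma fit, which was added after the values had been seen, the *CLEC4D* difference was 3.55 on the log2 scale. The term was chosen on the *CLEC4D* values themselves, so no call is drawn from this fit, in which 288 of the 1247 listed genes passed as higher (23.1%). The labels give no batch that marks these goats.

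**Figure D2:**
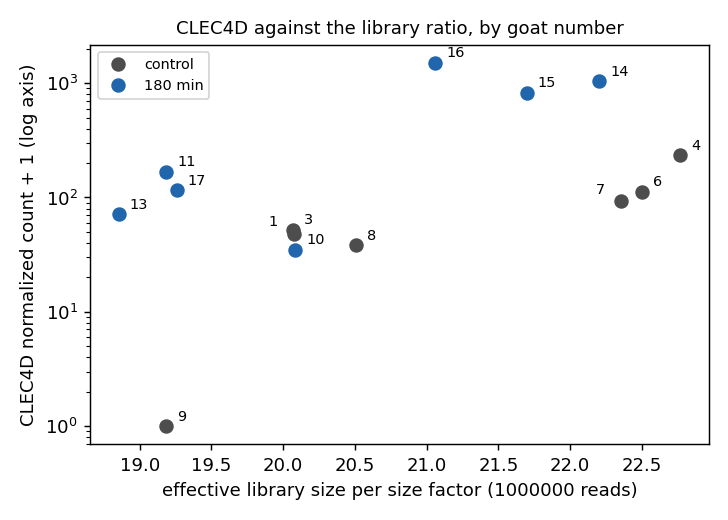
*CLEC4D* normalized count plus 1 (y axis, log scale) against the ratio of effective library size to size factor in units of 1000000 reads (x axis), with 1 point per goat, grey for the control group and blue for the 180 min group, and numbers giving the goat. In each group the 3 goats with the highest ratio (4, 6 and 7, and 14, 15 and 16) have the 3 highest *CLEC4D* counts.

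The next 2 listed genes along chromosome 5 encode lectin receptors as well, and they were looked at because of their position, after values of these genes had been seen. *CLEC6A* (Dectin-2) lies 20981 bases after *CLEC4D*, from 99631690 to 99649626, and *CLEC4A* lies from 99657816 to 99670348, both on the minus strand. *CLEC4A* had its 3 highest values of the 180 min group in the same goats as *CLEC4D*, with 1658, 3485 and 3697 in goats 14, 15 and 16 and 58.7 to 718 in the other 4. Control goats 4, 6 and 7 had 372, 786 and 659, and the other 4 control goats 124 to 333. *CLEC6A* had no read in goat 10, 166 to 776 in the other 6 goats of the 180 min group and 70.0 to 205 in the control goats. Neither was called (limma, differences of 1.44 and 0.55, adjusted p = 0.121 and 0.644). *CLEC4E*, at the other end of this stretch, had its 2 highest values of the 180 min group in goats 15 and 16 as well (2085 and 1412), but goat 14 had 401, its second-lowest. How the authors counted reads that fit several of these related genes is not given in the sources used here.

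**Figure D3:**
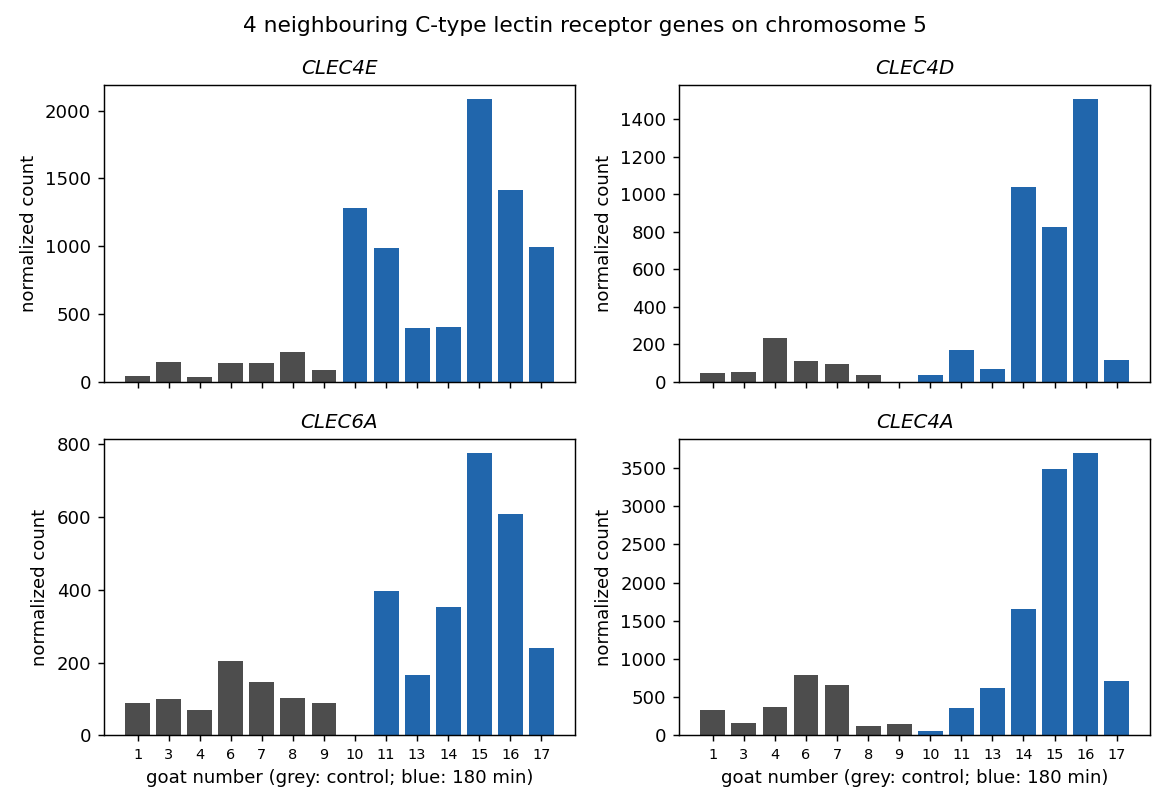
Normalized counts (y axis, from 0, a separate scale for each gene) of 4 lectin receptor genes that lie next to each other in the 180 min table on chromosome 5, with 1 bar per goat (x axis, goat number), grey for control goats and blue for goats transported for 180 min. The *CLEC4E* bars of all 7 transported goats exceed those of the 7 control goats, whereas *CLEC4D* is high in goats 14, 15 and 16, and *CLEC4A* is highest in the same 3 goats.

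*ADGRG3* had normalized counts of 90.3 to 601 in the control goats, with a median of 437, and of 798 to 2438 in the 180 min group, with a median of 916. No transported goat was within the control range, and goats 14, 15 and 16 had the 3 highest values (1113, 2438 and 1700). The mean was 1249 ± 607 against 421 ± 161 (SD, n = 7 each), and the log2 difference was 1.62 (standard error 0.41, limma, adjusted p = 0.0316, exact permutation test, p = 0.000583). Without control goat 4 or 6, or without goat 15 or 16 of the 180 min group, the adjusted p was 0.0527 to 0.0628. The unadjusted limma p stayed at or below 0.00374 with any goat left out.

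*C5AR1* had normalized counts of 3472 to 7055 in the control goats, with a median of 3847, and of 6514 to 34572 in the 180 min group, with a median of 12020. In the 180 min group 6 of the 7 goats were above all control goats, and goat 13, the lowest, was below control goat 3. Goats 14, 15 and 16 had the 3 highest values (14341, 34572 and 19499), and goat 15 alone held 33.2% of the group's total. The log2 difference was 1.49 (standard error 0.36, limma, adjusted p = 0.0296, exact permutation test, p = 0.00117). Without goat 15 it was 1.25 (adjusted p = 0.0519). The call was also lost without control goat 4 or 6 or without goat 16, at adjusted p of 0.0527 to 0.0628, while the unadjusted p stayed at or below 0.00268.

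The neighbouring *C5AR2*, whose product also binds C5a, was listed at 180 min but not called (limma, difference 1.11 ± 0.43 (SE), adjusted p = 0.0604). Its normalized count was 723 to 1241 in the control goats. Goats 14, 15 and 16 had the 3 highest values, up to 6368, and the lowest of the 180 min group was 772.

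*CSF3R* had the smallest difference on the log2 scale and the highest counts. Its normalized count was 15016 to 47222 in the control goats, with a median of 28616, and 36948 to 61077 in the 180 min group, with a median of 50139. The groups overlapped, since 4 of the 7 transported goats were above all control goats. The mean was 49832 ± 8834 against 28397 ± 11632 (SD, n = 7 each), 1.75 times as high, and the log2 difference was 0.90 (standard error 0.29, limma, adjusted p = 0.0467, exact permutation test, p = 0.00408). The call was close to the threshold. It was lost, at adjusted p of 0.0503 to 0.0787, without any one of control goats 1, 4, 6, 7 and 8 and goats 11, 14, 15, 16 and 17 of the 180 min group, with the unadjusted p at or below 0.0172. It was also lost with edgeR and TMM factors over the listed genes (0.42, adjusted p = 0.111), which called 11.2% of the listed genes higher.

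Since goats 14, 15 and 16 were the highest also in *C5AR1* and *ADGRG3*, the differences at 180 min are given separately for the 6 goats with a library ratio above 21 (3 against 3) and for the other 8 (4 against 4). The split was prompted by these values, so the differences are a description and no test is drawn from them. All 5 genes had higher means after transport in both. Above 21 the differences were 1.42 (*CSF3R*), 2.27 (*C5AR1*), 3.02 (*CLEC4D*), 3.63 (*CLEC4E*) and 1.82 (*ADGRG3*). Below 21 they were 0.51, 0.90, 2.24, 3.03 and 1.48, and there the transported and control goats overlapped in *CSF3R*, *C5AR1* and *CLEC4D* but not in *CLEC4E* and *ADGRG3*. Whether the difference from control depends on the ratio was not tested.

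**Figure D4:**
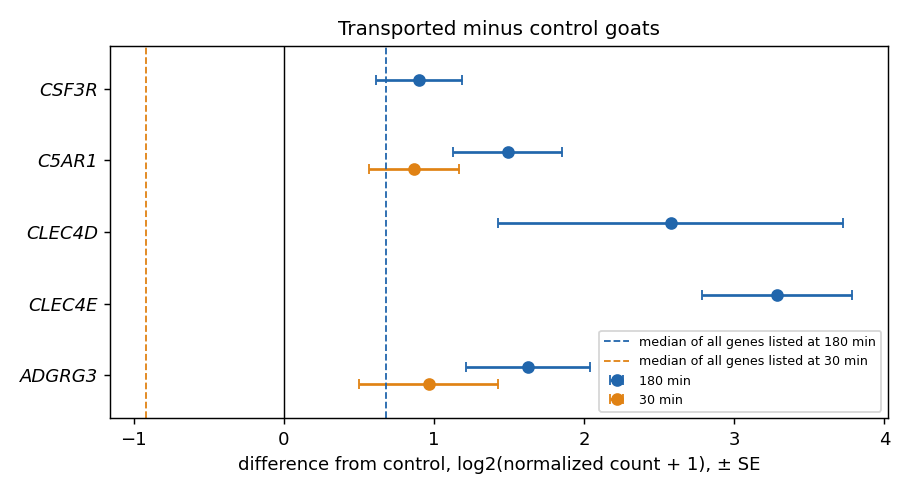
Difference from the control goats on the scale of log2(normalized count + 1) (x axis) for each receptor gene (y axis), blue for 180 min and orange for 30 min, with bars of ± 1 standard error. Dashed lines are the medians of all genes listed in each table (0.68 and -0.92). All 7 differences are above 0, from 0.87 to 3.29.

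At 30 min *C5AR1* and *ADGRG3* had higher means than in the control goats, but neither was called. Of the 430 listed genes 8 were called higher (1.86%), and the median difference of all listed genes was -0.92. The same 7 control goats served both comparisons, with other size factors, so the control values differ slightly from those above.

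The normalized counts of *C5AR1* in goats 21, 22, 24 and 27 were 10318, 6003, 5961 and 8216. The control goats had 3098 to 6727, with a median of 3611, so goats 21 and 27 were above all of them. The log2 difference was 0.87 (standard error 0.30, limma, adjusted p = 0.101, exact permutation test, p = 0.0121), and 0.71 to 0.99 with each goat left out in turn.

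*ADGRG3* had 558, 581, 605 and 927 in the same 4 goats and 87.1 to 573 in the control goats, with a median of 392. Goats 22, 24 and 27 were above all control goats. The log2 difference was 0.96 (standard error 0.46, limma, adjusted p = 0.110, exact permutation test, p = 0.0333). Without control goat 8, whose value of 87.1 was the lowest, it was 0.64 (adjusted p = 0.124), and without any other goat 0.80 to 1.09. On normalized counts the groups were apart for neither gene. With the transported goats higher, they were apart in 28 of the 430 genes (6.51%). By FPKM, *ADGRG3* did separate the groups narrowly, since goat 21, its lowest transported goat (6.32), exceeded control goat 3, its highest control (6.19). The *C5AR1* groups overlapped by FPKM as well. By the unadjusted limma p, *C5AR1* was below 0.05, as were 93 of the 430 listed genes with higher and 105 with lower means. DESeq2 called both (adjusted p = 0.0215 for *C5AR1* and 0.0453 for *ADGRG3*) and 27.2% of the listed genes higher, in a repeat of the comparison that listed them. Median centring, which adds 0.69 to the difference of every gene, also called both (limma, adjusted p = 0.0194 and 0.0427) and 27.4% of the listed genes higher.

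The transport times were compared directly on FPKM, in which the control values are the same in both tables. *C5AR1* had 55.3 ± 17.5 FPKM (SD, n = 7) in the control group, 103 ± 27.8 (SD, n = 4) at 30 min and 177 ± 107 (SD, n = 7) at 180 min. *ADGRG3* had 4.13 ± 1.61, 7.56 ± 1.90 and 12.5 ± 5.45 FPKM. The means were in the order of the transport time for both. Neither difference between the 180 min and 30 min groups had an exact permutation p under 0.05. With 7 against 4 goats this does not show that the 2 groups are alike. The difference on log2(FPKM + 0.1) was 0.62 (standard error 0.35, exact permutation test, p = 0.182) for *C5AR1* and 0.66 (standard error 0.26, p = 0.0636) for *ADGRG3*. With each goat left out in turn, it was 0.40 (without goat 15) to 0.78 for *C5AR1* and 0.49 (without goat 15) to 0.82 for *ADGRG3*. Of the 120 genes listed at both times, 5 were higher at 180 min with an exact p under 0.05 (4.17%), and neither receptor gene was among them.

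Within the 180 min group all 10 pairs of receptor genes had a positive Pearson r over the 7 goats (0.159 to 0.948, median 0.679), and 7 of the 10 were positive without the 2 goats farthest from the median of the first gene. *CSF3R* and *C5AR1* went from 0.625 to -0.025, *C5AR1* and *CLEC4E* from 0.571 to -0.163 and *CSF3R* and *CLEC4D* from 0.331 to -0.104. An exact p under 0.05 was reached by 4 pairs, and by 2 after adjustment. *CSF3R* and *CLEC4E* had an r of 0.948 on log2(normalized count + 1) (exact permutation test, p = 0.000397, adjusted 0.00794 over the 20 correlations computed in the 2 groups of 7). Spearman's rho was 0.964 (exact p = 0.00278, adjusted 0.0556), and r was 0.885 without goats 13 and 15. *C5AR1* and *ADGRG3* had an r of 0.943 (exact permutation test, p = 0.00139, adjusted 0.0139), a rho of 0.893 (exact p = 0.0123, adjusted 0.123) and an r of 0.834 without the same 2 goats. The other 4 pairs that do not involve *CLEC4D* had r of 0.571 to 0.718, with adjusted p of 0.275 to 0.370. *CLEC4D* had an r of 0.827 with *C5AR1* (exact permutation test, p = 0.0216, adjusted 0.144, rho 0.821) and of 0.754 with *ADGRG3* (exact p = 0.0413, adjusted 0.206, rho 0.643). Its values fell into clusters of 4 and 3 goats, 14, 15 and 16 in the latter, and no correlation was computed within them. The same 3 goats had the 3 highest values of *C5AR1* and of *ADGRG3*.

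In the control group 0 of the 10 pairs had an r with an exact permutation p under 0.05, and r lay between -0.371 and 0.706. *CSF3R* and *CLEC4E* had an r of 0.580 (exact permutation test, p = 0.171, adjusted 0.370) with a rho of 0.750 (exact p = 0.0663, adjusted 0.189). *C5AR1* and *ADGRG3* had an r of 0.434 (exact p = 0.310, adjusted 0.532) and a rho of 0.786 (exact p = 0.0480, adjusted 0.189). Control goat 8, with 90.3 normalized counts of *ADGRG3*, had the lowest value of that gene. Whether the correlations differ between the groups was not tested.

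**Figure D5:**
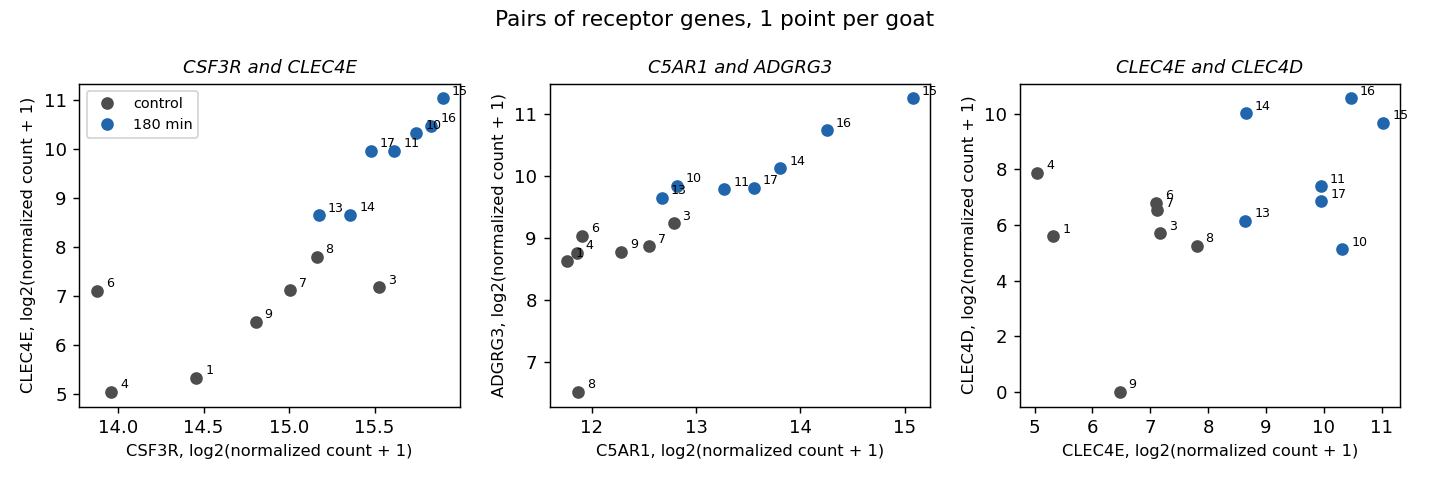
Log2(normalized count + 1) of 1 gene (y axis) against another (x axis) for *CSF3R* and *CLEC4E*, *C5AR1* and *ADGRG3*, and *CLEC4E* and *CLEC4D*, with 1 point per goat and goat numbers, grey for control and blue for 180 min. The 7 transported goats lie close to a line in the first pair (r = 0.948) and in the second (r = 0.943), and in the third goats 14, 15 and 16 lie above the other 4.

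The genes whose variation among the goats was most like that of each receptor gene were ranked by the Pearson r over the 14 control and 180 min goats after the group means had been taken out, among 769 listed genes, as a description. For *CSF3R* they were *TGM1*, a transglutaminase (0.90), the transporter gene *SLC43A3* (0.88) and the ephrin gene *EFNA4* (0.88). For *C5AR1* they were *RAB3D*, a small GTPase of secretory granules (0.91), the nucleoside transporter gene *SLC28A3* (0.91) and the sulfotransferase gene *CHST15* (0.90). For *ADGRG3* they were *PROK2*, a secreted chemoattractant peptide (0.90), the inflammasome gene *NLRP3* (0.82) and the glutamine synthetase gene *GLUL* (0.82). For *CLEC4D* they were the maltase-glucoamylase gene *MGAM* (0.93), *KLHL8* (0.91) and the phosphatase gene *DUSP16* (0.90). For *CLEC4E* the values were lower, with *TINAGL1* at 0.83, the growth factor gene *AREG* at 0.80 and *FGD3* at 0.75. No gene was named for more than 1 receptor gene. The values are the highest of 769 for each receptor gene, and how high they would be for unrelated genes was not tested.

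Genes of the pathways in which the 5 receptors act were counted from lists written from general knowledge, with the receptors left out. Of all listed genes, 16.6% were called higher at 180 min and 1.86% at 30 min. Of 23 genes of G-CSF receptor signalling, 5 were listed at 180 min and 3 were called higher, among them *CEBPA*, a transcription factor gene of granulocyte development (0.81 ± 0.25 (SE), adjusted p = 0.0421). *CEBPB* had the smallest difference (0.55 ± 0.68, adjusted p = 0.431) and was not called. At 30 min 3 of the 23 were listed and 2 called higher, *SOCS1*, an inhibitor of JAK kinases (2.56 ± 0.41, adjusted p = 0.0209), and *CEBPB* (1.43 ± 0.29, adjusted p = 0.0419). *SOCS3*, the inhibitor that CSF3R itself recruits, was listed at both times and not called (0.78 ± 0.46, adjusted p = 0.130 at 180 min and 0.77 ± 0.33, adjusted p = 0.103 at 30 min).

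Of 27 genes of chemoattractant receptors and their G protein signalling, 7 were listed at 180 min and 1 was called higher, *PIK3R5*, a subunit of the PI3-kinase that G protein-coupled receptors activate (0.63 ± 0.22, the smallest difference of the list, adjusted p = 0.0491). The complement gene *C3*, whose product feeds the pathway that makes C5a, had the largest difference (1.32 ± 0.49) and was not called (adjusted p = 0.0552). At 30 min 3 were listed. The chemokine receptor gene *CXCR4* had the largest difference and was called higher (1.19 ± 0.26, adjusted p = 0.0430), and *C5AR2* had the smallest (0.77 ± 0.37, adjusted p = 0.111).

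Of 18 genes of C-type lectin receptor signalling, 7 were listed at 180 min and 2 called higher. These were the kinase gene *FGR* and *CLEC1B*, a lectin receptor gene known from platelets, which had the largest difference (2.38 ± 0.81, adjusted p = 0.0491) on few reads, 16.2 ± 23.7 against 0.908 ± 1.73 normalized counts (SD, n = 7 each) and none in 6 of the 14 goats. *SYK* and *CARD9*, through which CLEC4D and CLEC4E signal, were listed and not called. The smallest difference was that of the kinase gene *PRKCD* (0.30 ± 0.19, adjusted p = 0.148). None of the 18 was listed at 30 min.

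Both listed genes of 15 other adhesion G protein-coupled receptors were called higher at 180 min, *ADGRE1* (2.02 ± 0.62, adjusted p = 0.0413) and *ADGRE5* (0.85 ± 0.28, adjusted p = 0.0470), and 0 were listed at 30 min. Of 22 other cytokine receptor genes of myeloid cells, 7 were listed at 180 min and 6 called higher, with the largest difference in *IL1R2*, the decoy receptor of interleukin 1 (4.57 ± 0.69, adjusted p = 0.00342), and the smallest in *TNFRSF1A* (0.83 ± 0.27, adjusted p = 0.0470). None of the 22 was listed at 30 min. No gene of these 5 lists was called lower at either time. Among all listed genes, 89 of 1247 were called lower at 180 min and 1 of 430 at 30 min.

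Some markers of blood cell types were called as well. Of 24 neutrophil markers 8 were listed at 180 min and 6 called higher, none of the 8 was at 0 in any goat, and their summed level was 417 to 5407 FPKM (median 2048) in the control goats and 2710 to 17444 (median 5677) in the 180 min group, most of it from *S100A12*, which was called. Of 12 monocyte markers 4 were listed and 2 called higher. Their sum was 501 to 2529 FPKM (median 1268) against 927 to 14791 (median 1592), most of it from *S100A4*, which was not called (limma, adjusted p = 0.191). Of 15 T cell markers 6 were listed and 3 called lower (387 to 794 FPKM, median 622, against 223 to 534, median 350). For comparison, of the 1247 listed genes 207 (16.6%) were called higher at 180 min and 89 lower, or 148 and 223 after median centring. *IL1R2* among the neutrophil markers and *CSF1R* among the monocyte markers were also counted above with the other cytokine receptors. Of 12 NK cell markers 1 was listed and called higher. Of 9 eosinophil, 12 B cell and 8 platelet markers 1 each was listed and not called, and of 8 red cell markers 0 were listed. At 30 min 2 neutrophil markers (44.7 to 200 against 164 to 301 FPKM), 5 B cell markers, all with lower means, and 1 NK cell marker were listed, and none was called. From the RNA of whole blood alone, more cells of a type and more RNA per cell cannot be told apart. The study also counted leukocytes, and those counts were not used here. The part of the cell types in the differences of the receptor genes was not tested.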

How the data were processed

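The members and gene lists were chosen with earlier results of these data known. Per the study's methods, globin mRNA was removed in library preparation, reads were cleaned with fastp and mapped with HISAT2; the genome build and counting tool are not given in the sources used here. The deposited counts are whole reads per gene. The deposited normalized counts (a signal scaled by the authors) are these divided by a size factor per goat and table. The study's methods name both TMM factors from edgeR and DESeq2, and which of them gave the size factors was not tested. The deposited FPKM divide the counts by gene length and library size. Gene length was taken from the same tables. The authors' DESeq2 results for each comparison (fold changes on a log2 scale and their p-values, raw and adjusted) are also in the tables and were not used. The study's methods state a q-value threshold for calls, but the tables hold genes with an unadjusted p under 0.05.

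Differences were fitted with limma 3.58.1 (R 4.3.3) on log2(normalized count + 1) over all genes of a table, without covariates, with Benjamini-Hochberg adjustment. Single genes were also tested over goats by exact two-sided permutation (3432 splits of 7 against 7, 330 of 4 against 7, smallest p 0.000583 and 0.00303). Size factors and effective library sizes were computed from the ratios of the columns. Alternatives were pseudocounts of 0.1 and 10, FPKM, median centring, a variance trend, a filter on mean normalized counts under 10, edgeR 4.0.16, DESeq2 1.42.0, the permutation test and leaving out each goat; a term for the library ratio and a split by it were added after seeing the data. Named genes were the 5 receptors, the largest and smallest difference of each list, and the 3 genes most like each receptor (mean normalized count 10 or more). Genes outside this rule (*CLEC4A*, *CLEC6A*, *C5AR2* and other called list genes) were named after their values were seen. Some genes that the rule would name are not reported here. No pair of goats had equal counts in more than 3.95% of genes. The models were tested on simulated data, and no result of those runs is given here. Python 3.11.15 with scipy 1.17.1 and matplotlib 3.10.9 was used.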

Additional observations from a re-analysis of the deposited data

Results flagged for a closer look

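Of 12 groups of goats tested for a single goat far from the rest (Dixon's ratio on log2(normalized count + 1)), 3 had one, where chance alone gives about 1 in 20. At 30 min goat 27 had the highest *ADGRG3* value, 927 against 558 to 605 in the other 3 goats (ratio 0.840). In the control group of the 180 min table goat 9 had the lowest *CLEC4D* value, 0 reads (ratio 0.668), and goat 8 had the lowest *ADGRG3* value, 90.3 against 394 to 601 in the other 6 control goats (ratio 0.777).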

How the results depend on the processing

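All differences of the receptor genes from control kept their direction under every alternative run. *CLEC4E* (2.79 to 3.63) also kept its call, except among the 8 goats with a library ratio below 21 (3.03), where 3 of the 1247 listed genes were called. Among these 8 *CSF3R* (0.51), *C5AR1* (0.90) and *ADGRG3* (1.48) were not called either, and among the 6 goats above 21 *CLEC4D* was (3.02). This split was prompted by the values, so neither a call nor a lost call is drawn from it. At 180 min *CSF3R* was not called with edgeR and TMM factors over the listed genes (0.42), while *CLEC4D* was called with edgeR and the deposited size factors (2.71) and with DESeq2 (2.72). It also passed with the added term for the library ratio (3.55), which was chosen on its own values and supports no call. At 30 min *C5AR1* and *ADGRG3* were called after median centring (1.56 and 1.65) and with DESeq2 (0.85 and 0.83). Without 1 goat each, the differences at 180 min ranged from 0.77 to 1.04 for *CSF3R*, from 1.25 to 1.65 for *C5AR1*, from 1.68 to 3.05 for *CLEC4D*, from 3.03 to 3.49 for *CLEC4E* and from 1.29 to 1.74 for *ADGRG3*. The correlations of *CSF3R* with *CLEC4E* and of *C5AR1* with *ADGRG3* in the 180 min group were not past the adjusted threshold as rho (0.964 and 0.893). No correlation past the threshold changed sign.

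The number of listed genes called was less stable than the differences. At 180 min it was 296, and it was 171 with a pseudocount of 0.1, 503 with edgeR and TMM, 667 with edgeR and the deposited size factors, 1200 with DESeq2 556 with the permutation test, 484 and 3 among the goats with a library ratio above and below 21, and 11 to 349 without 1 goat each. At 30 min it was 9, and it was 16 with a pseudocount of 10, 121 after median centring, 19 with a variance trend, 17 and 23 with edgeR under the 2 scalings, 355 with DESeq2 and 0 with the permutation test, and 0 to 21 without 1 goat each. The causes were not tested. Centring, which takes out a shift of 0.19 at 180 min and of -0.69 at 30 min, changed the split at 180 min from 207 higher and 89 lower to 148 and 223. With edgeR, the split was 140 and 363 under TMM and 456 and 211 under the deposited size factors. No paired analysis was possible because the groups share no goat numbers.

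Limits are that *CSF3R*, *CLEC4D* and *CLEC4E* have no values at 30 min here, and that 4 goats make up the 30 min group. Levels of genes not listed are unknown. Few reads fell on *CLEC4D* (0 to 226) and *CLEC4E* (31 to 242) in the control goats.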

Other observations

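The goats did not rank the same in all receptor genes. In the 180 min group goat 15 had the highest normalized count of 4 of the 5 genes, and goat 16 had that of *CLEC4D*. Goat 13 was the lowest in 4, and goat 10 in *CLEC4D*. Among the control goats goat 3 was the highest in 3 of the 5 (*CSF3R*, *C5AR1* and *ADGRG3*). The spread between goats, as a coefficient of variation of the normalized count, was 17.7% for *CSF3R* at 180 min and 41.0% in the control goats, whereas for *C5AR1* it was 65.7% and 29.4%. For *CLEC4D* it was 109% and 92.9%. These differences in spread were not tested.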
